A study of Caenorhabditis elegans with 8 samples.

Results

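In Caenorhabditis elegans, starved larvae of the first stage (L1) that lack the histone methyltransferase MET-2 were compared with wild-type larvae by RNA sequencing. The comparison held 2 libraries of met-2 mutants and 2 of the wild-type strain N2, which is 4 of the 8 libraries of the series. It was chosen by experiment, not by outcome, and is described here over the 6877 genes whose base mean, the average of the scaled counts that the authors report for its 4 libraries, was at least 50. At an adjusted p under 0.05 by the authors' DESeq2 test, 9 transcripts were higher in met-2 and 0 were lower in the authors' deposited table. At an unadjusted p under 0.05 by the same test, 111 genes (1.61%) were higher and 54 (0.785%) were lower. The 9 rises were large, from 3.22 to 5.78 on the log2 scale, and included the meiotic chromosome gene syp-1 and the collagen gene dpy-14. Most other genes differed little, with a log2 fold change between -1 and 1 for 92.2% of the genes.

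MET-2 adds methyl groups to lysine 9 of histone H3, a mark of repressed chromatin. The mark is read by chromodomain and HP1 proteins, and MET-2 works with SET-25 in worms to hold silent chromatin at the nuclear edge. SPR-5 removes methyl groups from lysine 4 of the same histone, a mark of active genes, and the pair act in the maternal reprogramming of chromatin between generations. A newly hatched larva without food stays in L1 arrest with a pair of undivided primordial germ cells, so body tissues make up almost the whole animal.

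The met-2 animals carried the allele n4256 on chromosome III, and the N2 animals carried no mutation named in the labels. The remaining libraries of the series were 2 of spr-5 (by101) and 2 of the double mutant spr-5 (by101); met-2 (n4256), which enter below only beside the called genes. All parents were grown on OP50 bacteria at 20 °C. Each sample was total RNA of 200 to 250 whole larvae that hatched overnight in M9 buffer, which holds no food, at 21 to 22 °C. The labels do not say whether the libraries of a group came from separate cultures, so the p-values measure the spread between these libraries, which may be technical. In RNA of whole animals, fewer cells of a type and less RNA per cell cannot be told apart. The labels do not say which bases the allele alters.

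The authors' deposited table gives each transcript a base mean, a log2 fold change of met-2 over N2 with its standard error (SE), a Wald score, and p-values before and after adjustment. It gives no value of a single library, so neither a spread between replicates nor the overlap of groups can be shown. The base means summed to 4831475 scaled counts, and transcripts at or above the minimum of 50 held 96.5% of that sum. The median log2 fold change over the 6877 genes was -0.02, and the quartiles lay at -0.33 and 0.29. Of these genes, 3323 (48.3%) were above 0 and 3554 below. The median SE was 0.74, and the smallest was 0.62. Fold changes of transcripts with few counts were small in the authors' deposited table, at most 0.40 in size below a base mean of 1 and at most 1.25 from 1 to 5. This is the pattern of estimates shrunken towards 0, a step the labels do not state, so a fold change may understate the difference, most of all at low counts.

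**Figure D1:**
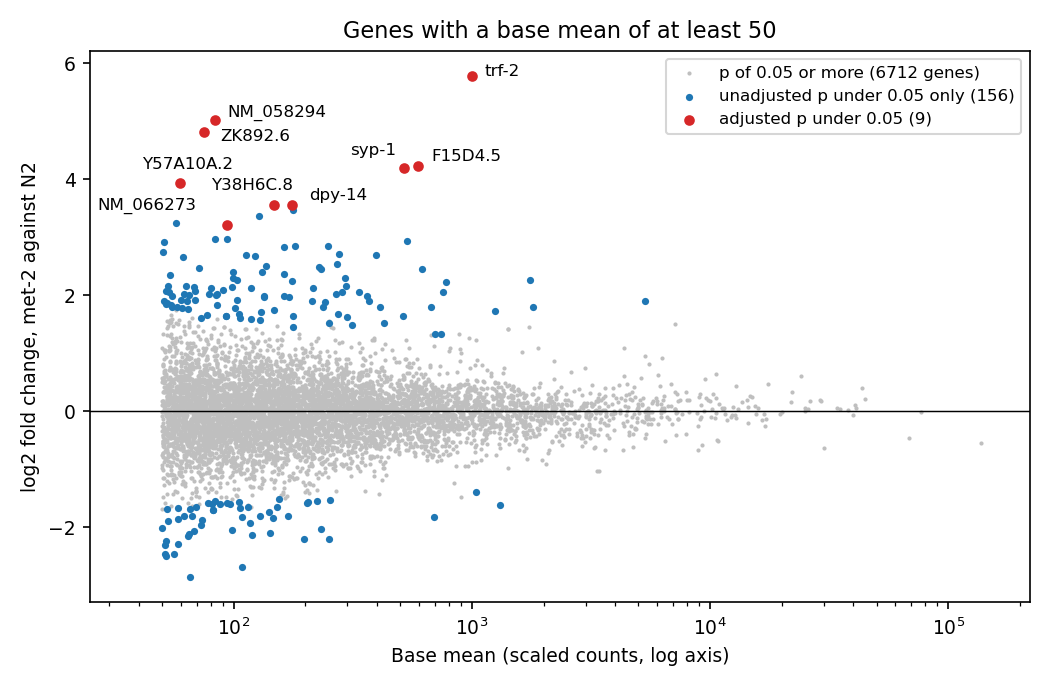
Each point is 1 gene, with the base mean over the 4 libraries on a log x axis and the log2 fold change of met-2 over N2 on the y axis. The 9 genes with an adjusted p under 0.05, in red, all lie at or above 3.22, and the 156 genes in blue passed only an unadjusted p under 0.05.

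The met-2 gene itself was examined first. In the authors' deposited table its transcript had a base mean of 544 and a log2 fold change of -0.43 (SE 0.69 and unadjusted p of 0.531). Transcript counts do not show whether a mutant mRNA still encodes a working enzyme, so this value does not check the labels. The spr-5 gene, wild type in both groups according to the labels, had a log2 fold change of 0.56 (SE 0.69 and unadjusted p of 0.420) at a base mean of 516 in the authors' deposited table.

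The H3K9 methylation genes other than met-2 were then described, since they act in the same pathway. None passed the authors' adjusted p. The authors' deposited table gave cec-4, whose chromodomain protein tethers H3K9-methylated chromatin to the nuclear edge, the largest value, 1.48 (SE 0.71 and unadjusted p of 0.0367). The HP1 gene hpl-1 had -1.07 (SE 0.82), the H3K9 methyltransferase gene set-25 had -0.61 (SE 0.69) and the reader gene cec-3 had -0.68 (SE 0.70) in the authors' deposited table. The demethylase gene jmjd-2 stood at 0.12 (SE 0.67) there. Of 12 listed genes found in the authors' deposited table, these 6 with met-2 included reached a base mean of 50, with 2 above 0 and 4 below and a median of -0.52. Below that minimum, the authors' deposited table gave 1.02 (SE 0.82) for the second HP1 gene hpl-2 and -0.67 (SE 0.87) for lin-65, a cofactor of MET-2. The putative methyltransferase gene set-32 had 0.74 (SE 0.90) and the reader gene lin-61 had 0.33 (SE 0.89) in the authors' deposited table. The demethylase gene jmjd-1.2 and the MET-2 cofactor gene arle-14 were listed at a base mean of 0, and set-11 was not matched.

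The 9 called transcripts were 0.13% of the 6910 transcripts at or above the minimum, and all 9 were higher in met-2. The largest rise was that of trf-2, at 5.78 on the log2 scale (SE 0.80 and adjusted p of 9.09e-09) in the authors' deposited table. Its base mean of 1003 and its 55.0-fold difference correspond to group means of about 35.8 scaled counts in N2 and 1970 in met-2. If the folds were shrunken, such an N2 mean is an upper value and the met-2 mean a lower one. In their table for spr-5 against the same N2 libraries, also deposited, the trf-2 base mean over both groups was only 8.52.

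The gene syp-1 encodes a central component of the synaptonemal complex, which holds paired chromosomes together in meiosis. It rose by 4.20 (SE 0.75 and adjusted p of 6.67e-05) in the authors' deposited table, which is 18.3-fold, from about 53.7 to about 985 scaled counts. The cuticle collagen gene dpy-14 rose by 3.56 (SE 0.77 and adjusted p of 0.00829) in the authors' deposited table, or 11.8-fold, at a base mean of 176. With trf-2, these are the called genes that carry a genetic name. syp-1 is known for meiosis in the gonad of older animals, and collagens for the cuticle that is secreted in late embryos and at each molt.

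The other called transcripts carry only a sequence name or no name in the reference. F15D4.5 had a base mean of 596 and rose by 4.24 (SE 0.78 and adjusted p of 0.000133) in the authors' deposited table, from about 60.1 to about 1132 scaled counts. ZK892.6 rose by 4.81 (SE 0.83 and adjusted p of 2.92e-05) and NM_058294, which matched no symbol, by 5.01 (SE 0.82 and adjusted p of 6.10e-06) in the authors' deposited table. Their implied N2 means were near 5 scaled counts, 5.16 and 5.03, against 144 and 162 in met-2. Y57A10A.2 rose by 3.93 (SE 0.84 and adjusted p of 0.00594) at the lowest base mean of the 9, 59.3, in the authors' deposited table. The weakest calls were those of NM_066273 (3.22, SE 0.75 and adjusted p of 0.0345) and Y38H6C.8 (3.56, SE 0.85 and adjusted p of 0.0460) in the authors' deposited table. These last genes did not pass when the Benjamini-Hochberg adjustment was recomputed over all 29076 deposited p-values, with adjusted p-values of 0.0721 and 0.0961.

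The same transcripts were read in the other comparisons with N2, which share the N2 libraries and were normalized separately. At the same threshold and base mean, 0.042% of transcripts were called in spr-5, all higher, and 1.06% in the double mutant, of which 0.985% were higher and 0.0724% lower. For the double mutant, trf-2 stood in the authors' deposited table at 6.39 (SE 1.13 and adjusted p of 2.05e-05), F15D4.5 at 5.98 (SE 1.00 and adjusted p of 3.32e-06) and Y57A10A.2 at 5.61 (SE 1.10 and adjusted p of 0.000168). NM_058294 had 6.21 (SE 1.15 and adjusted p of 4.43e-05) and NM_066273 had 4.45 (SE 0.98 and adjusted p of 0.00152) in that deposited table of the authors. ZK892.6 had 6.83 (SE 1.13 and adjusted p of 3.20e-06) and syp-1 had 4.42 (SE 0.99 and adjusted p of 0.00227) there. In contrast, dpy-14 had 2.77 (SE 1.16 and adjusted p of 0.496) in the same deposited table of the authors and did not pass. Y38H6C.8 had 0.56 (SE 1.36) there, at a base mean of 8.19 and with no adjusted p. In spr-5 none of the 9 passed the authors' adjusted p. For spr-5 their values ran in the authors' deposited table from 0.40 (SE 0.90) for trf-2 to 3.02 (SE 0.90) for Y57A10A.2, with 2.04 (SE 0.84) for dpy-14. Differences between the mutants were not tested.

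**Figure D2:**
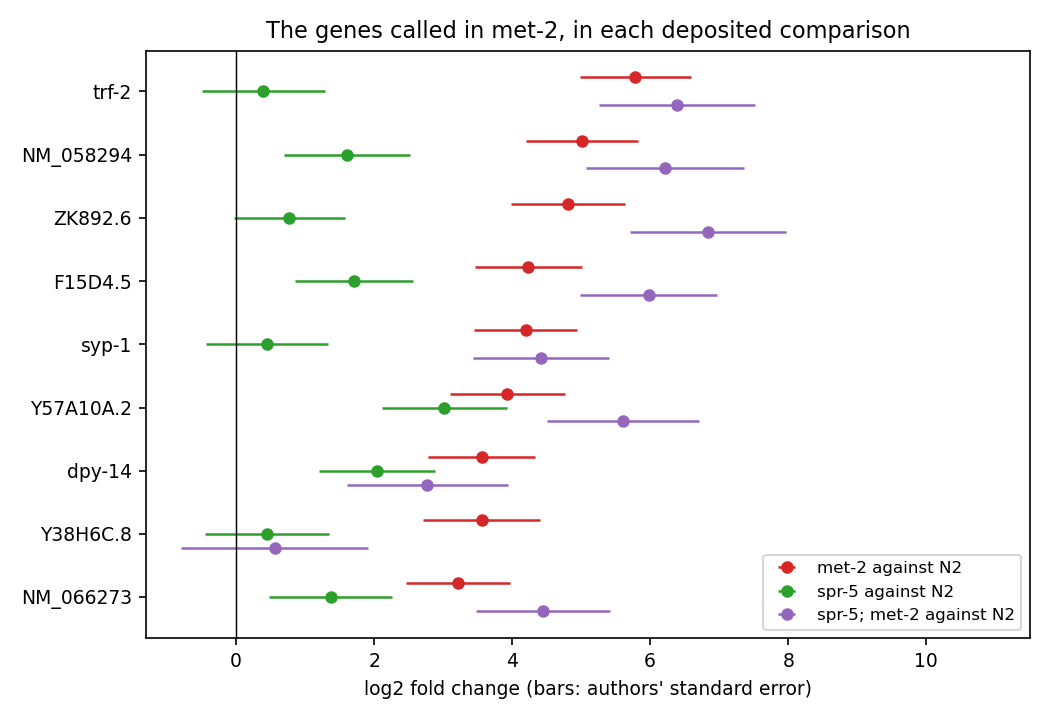
Points give the log2 fold change (x axis) of the 9 called transcripts in met-2 (red), spr-5 (green) and the double mutant (purple) against N2, and bars the authors' standard errors. The met-2 points lie between 3.22 and 5.78. In the double mutant dpy-14 (2.77) and Y38H6C.8 (0.56) did not pass the adjusted p.

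No called transcript had a log2 fold change under 3.22, and the next 4 genes had adjusted p-values between 0.05 and 0.1. C55B7.11 and nhr-2 each had an adjusted p of 0.0734 in the authors' deposited table, with log2 fold changes of 3.47 (SE 0.86) and 3.37 (SE 0.84). nhr-2 encodes a nuclear hormone receptor that is expressed in early embryos. The chemoreceptor gene sri-31 had 2.85 (SE 0.72 and adjusted p of 0.0801) in the authors' deposited table, and enu-3.3 had 2.85 (SE 0.73 and adjusted p of 0.0969). enu-3.3 belongs to a family of similar genes, where counts could be shared between copies.

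Below the calls, the unadjusted p was used only to describe direction. At an unadjusted p under 0.05, 111 genes (1.61%) were higher in met-2 and 54 (0.785%) were lower in the authors' deposited table. Together they were 165 genes, or 2.4%, a smaller share than the 5% that the threshold would pass if all p-values were evenly spread. The higher genes outnumbered the lower ones in each class of base mean. From 50 to 100 there were 45 higher and 30 lower, from 200 to 500 there were 23 and 6, from 500 to 1000 there were 10 and 1, and above 1000 there were 5 and 2. The genes on the higher side had a median base mean of 129, and those on the lower side 90.7, against 173 over all genes.

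The 12 largest log2 fold changes on the higher side were those of the 9 called transcripts, C55B7.11, nhr-2 and F54F7.6, which had 3.24 (SE 0.86 and unadjusted p of 0.000175) in the authors' deposited table. On the lower side no gene passed the adjusted p. The largest value was that of F32B6.14, an annotated non-coding RNA, with -2.86 (SE 0.90 and unadjusted p of 0.00141) in the authors' deposited table. The long intergenic non-coding RNA linc-134 followed with -2.69 (SE 0.83 and unadjusted p of 0.00114) in the authors' deposited table. Another non-coding RNA, F58F12.11, had -2.46 (SE 0.90), and the chemoreceptor genes srd-19 and srx-22 had -2.46 (SE 0.90) and -2.31 (SE 0.89) there. ZK622.4 had -2.19 (SE 0.80 and unadjusted p of 0.00631) at a base mean of 197 in the authors' deposited table. The other 6 matched no symbol: NM_076165 (-2.49), NM_059813 (-2.29), NM_076178 (-2.23), NM_001047401 (-2.20), NM_061823 (-2.15) and NM_059681 (-2.13) in the authors' deposited table. Over all genes at this unadjusted p, protein-coding genes made up 96 of the 111 higher and 40 of the 54 lower ones. Of all 6877 genes at the minimum, 5817 were protein-coding. A further 12 of the higher and 9 of the lower genes matched no symbol and so had no annotated class.

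**Figure D3:**
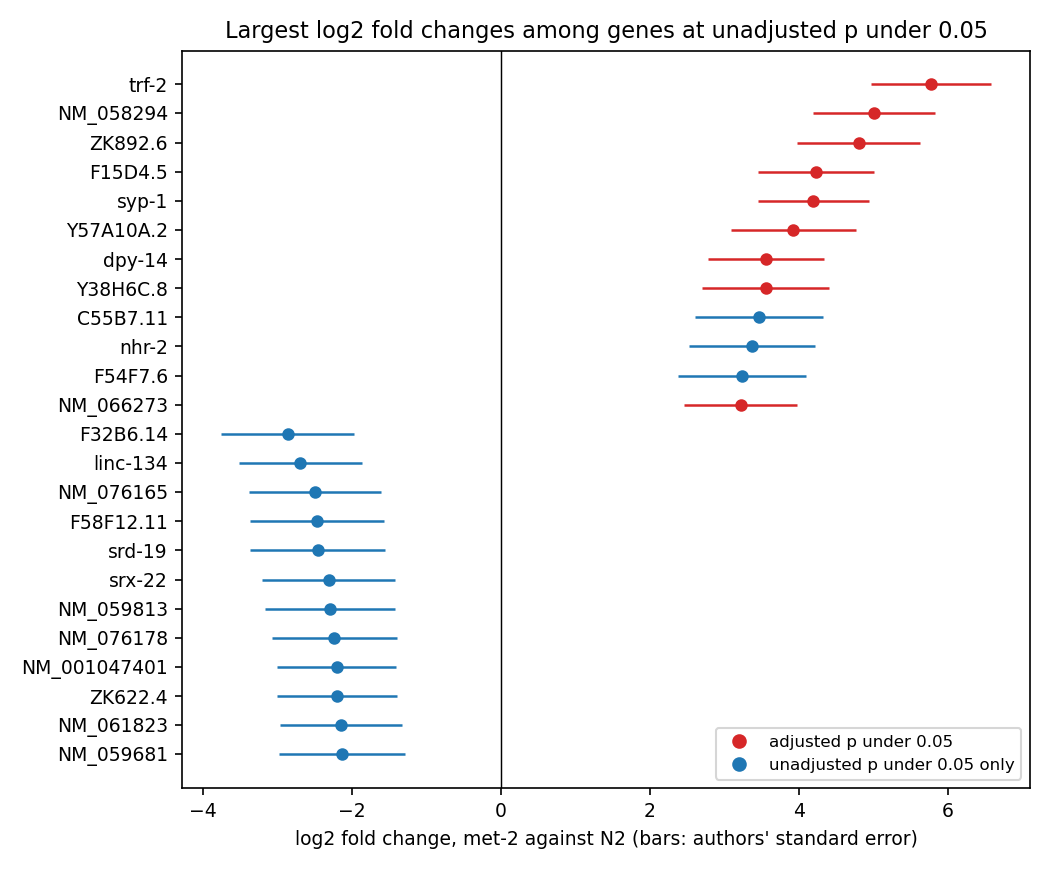
The 12 largest positive and the 12 largest negative log2 fold changes of met-2 over N2 (x axis) among genes with an unadjusted p under 0.05 are drawn with the authors' standard errors as bars. The positive values reach 5.78 and the negative values -2.86, and red marks an adjusted p under 0.05, which no negative value had.

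Germline genes were described next. Of 32 genes of meiosis matched, only 3 reached the minimum, and the list was too small for a median. syp-1 was the 1 called member of any list. Beside it, the authors' deposited table gave the meiotic chromatin gene him-17 0.10 (SE 0.68) and brd-1, which acts in DNA repair, 0.72 (SE 0.79). The other synaptonemal complex genes lay below the minimum, and their values, given after they were seen, were smaller than that of syp-1. In the authors' deposited table syp-4 had 0.81 (SE 0.84) at a base mean of 41.6 and syp-6 had 0.90 (SE 0.89) at 48.2. syp-5 had 0.69 (SE 0.88), syp-3 had 0.02 (SE 0.89) and syp-2 had -0.27 (SE 0.90) in the authors' deposited table, all with base means under 30. The axis gene htp-3 had 0.37 (SE 0.80) and the cohesin gene rec-8 had 1.43 (SE 0.91) there. None of these passed the adjusted p.

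Few markers of germ cells were detected well in these larvae. Of 11 markers 3 reached a base mean of 50, the base means of all 11 summed to 612, and him-3, which has 2 listed transcripts, was at 0. The P granule genes pgl-1 and pgl-3, which are defining markers, had base means of 0.835 and 0.511 in the authors' deposited table. They have 1 and 2 listed transcripts. The Vasa-type helicase gene glh-1 had 1.68 (SE 0.72 and unadjusted p of 0.0198) in the authors' deposited table at a base mean of 273. Its relative glh-2, where similar sequences could share counts, had 0.35 (SE 0.90). The H3K36 methyltransferase gene mes-4, which carries the memory of germline expression, had 1.33 (SE 0.79 and unadjusted p of 0.0897) in the authors' deposited table. All 3 markers above the minimum were thus above 0. Below it, htp-3 and rec-8 were above 0 too, and the authors gave deps-1 0.51 (SE 0.90) and nos-2 0.47 (SE 0.90). On the other side of 0 were pgl-1 at -0.40 (SE 0.59), glh-4 at -0.24 (SE 0.90) and pgl-3 at -0.02 (SE 0.58). The part of germ cell number in the values of germline genes was not tested.

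P granules are the RNA-protein bodies of germ cells. Of 22 matched P granule and germ plasm genes 6 reached the minimum, 4 above 0, with a median of 0.30, or 0.47 over 4 genes with a minimum of 100. Beside glh-1, the zinc finger gene mex-5 had 0.71 (SE 0.71) in the authors' deposited table. The helicase gene cgh-1, at the largest base mean of the list, 3172, had -0.07 (SE 0.70) there. Translational regulators of the germline gave 5 values above 0 and 7 below, with a median of -0.07. Among them the PUF family gene puf-11 had -1.74 (SE 0.81 and unadjusted p of 0.0311), cpb-3 had -0.85 (SE 0.79) and cpb-1 had 0.72 (SE 0.80) in the authors' deposited table.

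Small RNA pathways silence transposons and foreign genes in the germline and act with H3K9 methylation. Of 35 matched genes of Argonautes and small RNA factors 20 reached the minimum, 12 above 0 and 8 below, with a median of 0.06. The Piwi gene prg-1 had the smallest p of the list, with 2.05 (SE 0.68 and unadjusted p of 0.00271) in the authors' deposited table, and did not pass the adjusted p. The nuclear Argonaute gene hrde-1 had 1.05 (SE 0.69) and the germline Argonaute gene wago-4 had 0.82 (SE 0.75) in the authors' deposited table. Of the 20, 1 had an unadjusted p under 0.05, beside 2.4% of all genes.

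**Figure D4:**
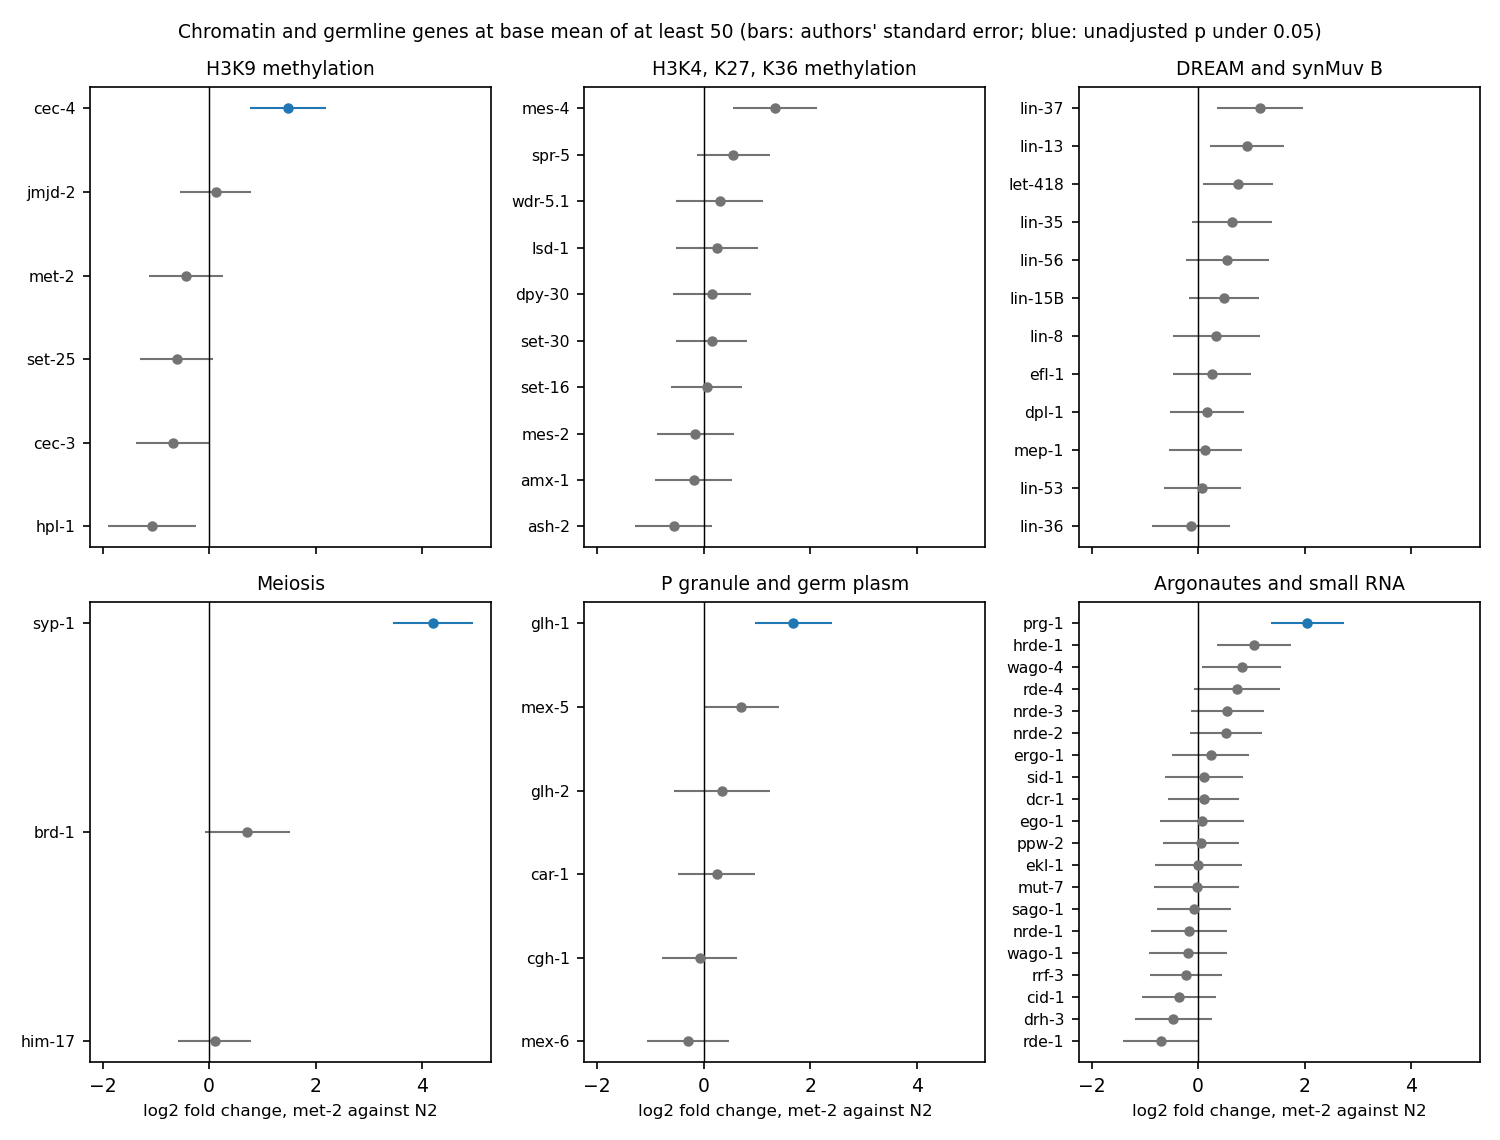
Log2 fold changes of met-2 over N2 (x axis) are shown for the members of 6 chromatin and germline lists that reached the base mean minimum of 50, with the authors' standard errors as bars. Blue marks an unadjusted p under 0.05, which cec-4, syp-1, glh-1 and prg-1 had, and only syp-1 (4.20) passed the adjusted p.

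Chromatin regulators beyond H3K9 were centred a little above 0. The list of H3K4, H3K27 and H3K36 methylation genes had a median of 0.15, with 7 of 10 above 0. Its highest value was that of mes-4, and its lowest that of the COMPASS subunit gene ash-2, at -0.56 (SE 0.73) in the authors' deposited table. The MLL-type methyltransferase gene set-16 stood at 0.06 (SE 0.67) there. The DREAM complex and the synMuv B proteins repress germline and cell cycle genes in body cells. The list named for them also holds lin-8 and lin-56, which are synMuv A genes. Of its 12 genes at the minimum 11 were above 0, with a median of 0.41 against -0.02 over all genes. None had an unadjusted p under 0.05. The DREAM subunit gene lin-37 had 1.16 (SE 0.81), the zinc finger gene lin-13 had 0.93 (SE 0.70) and the Mi-2 gene let-418 had 0.75 (SE 0.66) in the authors' deposited table.

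Genes of DNA replication and chromosome segregation, which have little use in arrested larvae, gave similar values. Of 17 replication genes 14 were above 0, with a median of 0.41. The helicase subunit genes mcm-7 and mcm-3 had 1.25 (SE 0.73 and unadjusted p of 0.0866) and 1.22 (SE 0.73 and unadjusted p of 0.0958) in the authors' deposited table. The licensing gene cdc-6 had -0.84 (SE 0.77) there. Of 13 kinetochore and centromere genes 9 were above 0, with a median of 0.26. Both CENP-F-like genes were among the highest, with 1.10 (SE 0.73) for hcp-1 and 0.85 (SE 0.78) for hcp-2 in the authors' deposited table. They resemble each other, and reads between them could be split. The scaffold gene knl-1 had 0.90 (SE 0.71) there, and the checkpoint gene bub-3 had -0.04 (SE 0.74). No gene of these lists had an unadjusted p under 0.05.

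The eggshell list gave 4 of 5 values above 0 and the highest median of the lists, 0.58. Beside genes made in oocytes it holds egg-6, known from body epithelia, which had the largest base mean of the 5, 292. The chondroitin proteoglycan gene cpg-1 had 0.80 (SE 0.77), the chitin synthase gene chs-1 had 0.65 (SE 0.86) and cbd-1, of the vitelline layer, had 0.58 (SE 0.70) in the authors' deposited table. The median dropped to 0.05 with a base mean minimum of 10. Core histone genes, which come in near-identical copies that could share counts, had 14 of 20 above 0 and a median of 0.14, and 37 of the 70 were listed at a base mean of 0. The highest value was 1.12 (SE 0.88) for his-74 in the authors' deposited table.

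Body tissues were checked by marker lists. Muscle sarcomere genes had a summed base mean of 215467, with 20 of 23 at or above the minimum and a median log2 fold change of -0.03. The myosin heavy chain gene unc-54 had -0.02 (SE 0.68) at a base mean of 76869 in the authors' deposited table. Intestinal markers had a summed base mean of 32442 and a median of 0.16, with 7 of 11 above 0. The aspartyl protease gene asp-1 had 0.61 (SE 0.73) and the cysteine protease gene cpr-1 had 0.50 (SE 0.76) in the authors' deposited table. Neuronal markers had a median of 0.06, with 6 of 9 above 0. The synaptic gene unc-13 had 0.76 (SE 0.77), the dopamine transporter gene dat-1 had -0.46 (SE 0.73) and the neuropeptide processing gene egl-21 had -0.07 (SE 0.68) in the authors' deposited table. Hypodermal markers were few, with 3 of 14 at or above the minimum. Of these the collagen gene sqt-3 had 1.98 (SE 0.75 and unadjusted p of 0.00841), the nuclear receptor gene nhr-25 had 0.05 (SE 0.75) and the molting gene mlt-10 had -0.03 (SE 0.81) in the authors' deposited table. The medians of the muscle, intestine and neuron lists lay between the quartiles of all genes.

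L1 arrest depends on insulin signalling, which is low without food. All 8 insulin pathway genes at or above the minimum were below 0, with a median of -0.17. The metallothionein gene mtl-1, a target of the pathway that is also an intestinal marker, had -1.39 (SE 0.69 and unadjusted p of 0.0429) in the authors' deposited table. The kinase gene akt-2 had -0.45 (SE 0.69) and the PI3 kinase gene age-1 had -0.34 (SE 0.73) there. Of the 34 insulin-like peptide genes 5 reached the minimum, with a median of -0.36, and ins-35 had the lowest value, -0.45 (SE 0.79), in the authors' deposited table. The median was -0.04 over 16 genes with a base mean minimum of 10, and -0.11 over 2 genes with 100.

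Receptors and channels differed in where their families lay. Nuclear hormone receptors, a family much enlarged in worms, had 28 of 66 above 0 and a median of -0.15. In contrast to nhr-2, nhr-44 had -2.01 (SE 0.84 and unadjusted p of 0.0167) and nhr-203 had -1.55 (SE 0.77 and unadjusted p of 0.0432) in the authors' deposited table. Of 1281 chemoreceptor genes only 16 reached the minimum, with a median of 0.17, and the unadjusted p was under 0.05 for 2 higher and 3 lower ones, beside 2.4% of all genes in both directions. All 8 two-pore potassium channel genes of the twk family were below 0, with a median of -0.61. The lowest was twk-12 with -1.02 (SE 0.75) in the authors' deposited table, none had an unadjusted p under 0.05, and the median was -0.21 with a base mean minimum of 10. Ligand-gated channel genes had a median of -0.06, or 0.02 with a minimum of 10, with lgc-49 at 1.29 (SE 0.80) and the glutamate receptor gene glr-1 at -0.80 (SE 0.73) in the authors' deposited table.

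Among secreted signals, Hedgehog-related genes had a median of 0.00, with wrt-10 at 1.65 (SE 0.78 and unadjusted p of 0.0353) in the authors' deposited table. Patched-related genes had a median of -0.01, which turned to 0.01 when values were centred on the median of all genes. Their extremes were ptr-15 with -1.65 (SE 0.85 and unadjusted p of 0.0518) and ptr-25 with 1.29 (SE 0.78) in the authors' deposited table. Of the transcription factor families, homeobox genes of the ceh class had 12 of 21 above 0 and a median of 0.19. The LIM homeobox gene ceh-14 had 1.33 (SE 0.78 and unadjusted p of 0.0876) and ceh-10 had 1.04 (SE 0.76) in the authors' deposited table. The ztf zinc finger genes had a median of 0.16.

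Several families of small secreted proteins had most of their values below 0. Of 31 transthyretin-related genes, which encode small extracellular proteins, 28 were below 0, with a median of -0.51. ttr-29 had -1.84 (SE 0.79 and unadjusted p of 0.0193), ttr-28 had -1.42 (SE 0.82) and ttr-26 had -1.19 (SE 0.73) in the authors' deposited table. All 10 antimicrobial peptide genes of the cnc, fip and related classes were below 0, with a median of -0.61. The lowest values were those of cnc-4 (-1.31, SE 0.89), cnc-10 (-1.15, SE 0.86) and fipr-1 (-1.03, SE 0.74) in the authors' deposited table. Of 42 neuropeptide-like protein genes 30 were below 0, with a median of -0.22. Their lowest were nlp-29 (-1.47, SE 0.84 and unadjusted p of 0.0795), which is made in the epidermis on infection, nlp-27 (-1.14, SE 0.76) and nlp-31 (-0.92, SE 0.88) in the authors' deposited table. They lie in a family of close copies, whose reads could be split between members. FMRFamide-like peptide genes had a median of -0.12.

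These families have short transcripts, and short genes had lower values in general in this comparison. The median exonic length was 575 bases for the transthyretin-related genes, 411.5 for the antimicrobial peptides and 532.5 for the neuropeptide-like proteins. Over the 5891 genes with a length (85.7% of the 6877), split by length into 5 classes of near-equal size, the shortest class, 21 to 856 bases, had a median log2 fold change of -0.18 and 34.4% above 0. The longest class, from 2490 bases, had 0.06 and 56.5%. In the spr-5 comparison the shortest class had a median of -0.17, and in that of the double mutant 0.01. Cytosolic ribosomal protein genes are about as short, with a median of 587 bases, and were evenly split, with 28 above 0, 28 below and a median of 0.00. Among lists with higher medians, the median length was 3383 bases for eggshell, 2624 for DREAM and synMuv B, 2589 for kinetochore and 1902 for replication genes. The Argonaute and small RNA list, at 3314.5 bases, had a median log2 fold change of 0.06. Core histone genes, at 411 bases, had a median of 0.14. The twk genes, at 2088 bases, had the lowest median of the lists, -0.61, and the H3K9 list, at 2110 bases, had -0.52. The part of transcript length in the family medians was not tested.

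Immune and detoxification families were spread on both sides of 0. C-type lectins had a median of -0.09, which turned to 0.11 with a base mean minimum of 100, with clec-138 at 1.83 (SE 0.83 and unadjusted p of 0.0278) and clec-153 at -1.70 (SE 0.83 and unadjusted p of 0.0405) in the authors' deposited table. The pals genes, some of which answer to intracellular infection, had a median of 0.04, and the highest of the 9 was pals-14 with 0.82 (SE 0.80) in the authors' deposited table. F-box genes of the fbxa, fbxb and fbxc classes had a median of -0.40, which turned to 0.11 with a base mean minimum of 10 and to 0.07 with 100. fbxa-11 among them had 1.96 (SE 0.83 and unadjusted p of 0.0176) in the authors' deposited table. The MATH and BATH genes had a median of -0.25, which turned to 0.07 with a minimum of 10. Cytochrome P450 genes had a median of -0.01, or 0.01 after centring, and cyp-36A1 had the lowest value, -1.19 (SE 0.75), in the authors' deposited table. Glutathione S-transferase genes had a median of -0.10, or 0.00 with a minimum of 100, with gst-41 at -1.70 (SE 0.78 and unadjusted p of 0.0305) in the authors' deposited table. UDP-glycosyltransferases had a median of -0.26, or -0.13 with a minimum of 100, with ugt-62 at -1.47 (SE 0.79 and unadjusted p of 0.0606) in the authors' deposited table. Lysozymes and saposins had a median of -0.08.

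The large machines of protein synthesis and turnover had medians close to 0. The cytosolic ribosomal genes ranged from -1.03 (SE 0.71) for rpl-38 to 0.64 (SE 0.68) for rps-2 in the authors' deposited table. Mitochondrial ribosomal genes had 20 above 0 and 36 below, with a median of -0.14. Proteasome genes had 18 of 27 above 0 and a median of 0.16, and V-ATPase genes 5 of 16 and a median of -0.14. The cytosolic chaperonin had 6 of 7 subunit genes above 0 and a median of 0.40, led by cct-3 with 0.68 (SE 0.68) in the authors' deposited table. Heat shock genes had a median of -0.05, which turned to 0.17 with a minimum of 100. The small heat shock gene hsp-12.3 had -1.87 (SE 0.81 and unadjusted p of 0.0215), while the chaperone gene hsp-90 had 0.48 (SE 0.73) in the authors' deposited table. DnaJ genes had a median of 0.19, led by dnj-18 with 1.39 (SE 0.84 and unadjusted p of 0.0972) in the authors' deposited table. Cathepsin and aspartyl protease genes had 12 of 15 above 0 and a median of 0.19. The complex I list had a median of 0.18, small GTPases 0.08, desaturases and elongases -0.03, and acyl-CoA enzymes -0.04. Cuticle collagens of the col class had 11 of 15 below 0 and a median of -0.19, with col-76 at 0.98 (SE 0.74) and col-80 at -0.98 (SE 0.88) in the authors' deposited table.

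Non-coding RNAs were grouped by their annotated class, a grouping added after the values were seen. The 139 genes annotated only as non-coding RNA had a median of -0.08. Of these, 2 were higher and 4 lower by an unadjusted p under 0.05, beside 1.61% and 0.785% of all genes. The 25 long intergenic RNAs had a median of -0.23 and 16 below 0, and linc-134 alone had an unadjusted p under 0.05. Of 20 small nucleolar RNA genes, which guide modification of ribosomal RNA, 17 were below 0, with a median of -0.58 and a median length of 166.5 bases. The median was -0.29 over 73 genes with a base mean minimum of 10. T25C12.11, at the largest base mean of that class, 4735, had -0.61 (SE 0.85) in the authors' deposited table. Of 13405 annotated piRNA loci only 16 reached the minimum, and 15 of them were below 0, with a median of -0.72, which was -0.47 over 184 loci with a base mean minimum of 10. At a length of 21 bases, counts at such a locus cannot be told apart from reads of a longer transcript across it. The locus 21ur-15006 had -1.16 (SE 0.81) in the authors' deposited table. Of 10 antisense RNA genes 5 were above 0, and anr-35 had 1.78 (SE 0.86 and unadjusted p of 0.0385) in the authors' deposited table. Whether counting used the strand is not given in the sources used here, so antisense and overlapping genes are uncertain.

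Over the 49 lists and families with at least 5 genes at or above the minimum, 22 medians were above 0 and 27 below, from -0.61 to 0.58. In 35 of them the median lay within 0.25 of 0, and 34 had no member with an unadjusted p under 0.05. The annotated classes of RNA added later are not among these numbers. A further 12 lists had under 5 such genes. They included sperm families (2 of 76 genes), vitellogenins (1 of 4), Hox genes (4 of 6), cullin-6 ligase genes (4 of 5), helix-loop-helix genes (4 of 24) and T-box genes (1 of 17). They also included linker histones (3 of 7), cuticlins (1 of 6) and sdz zygotic genes (2 of 29), beside the meiosis, hypodermis and germ cell lists. No list but meiosis held a called gene.

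**Figure D5:**
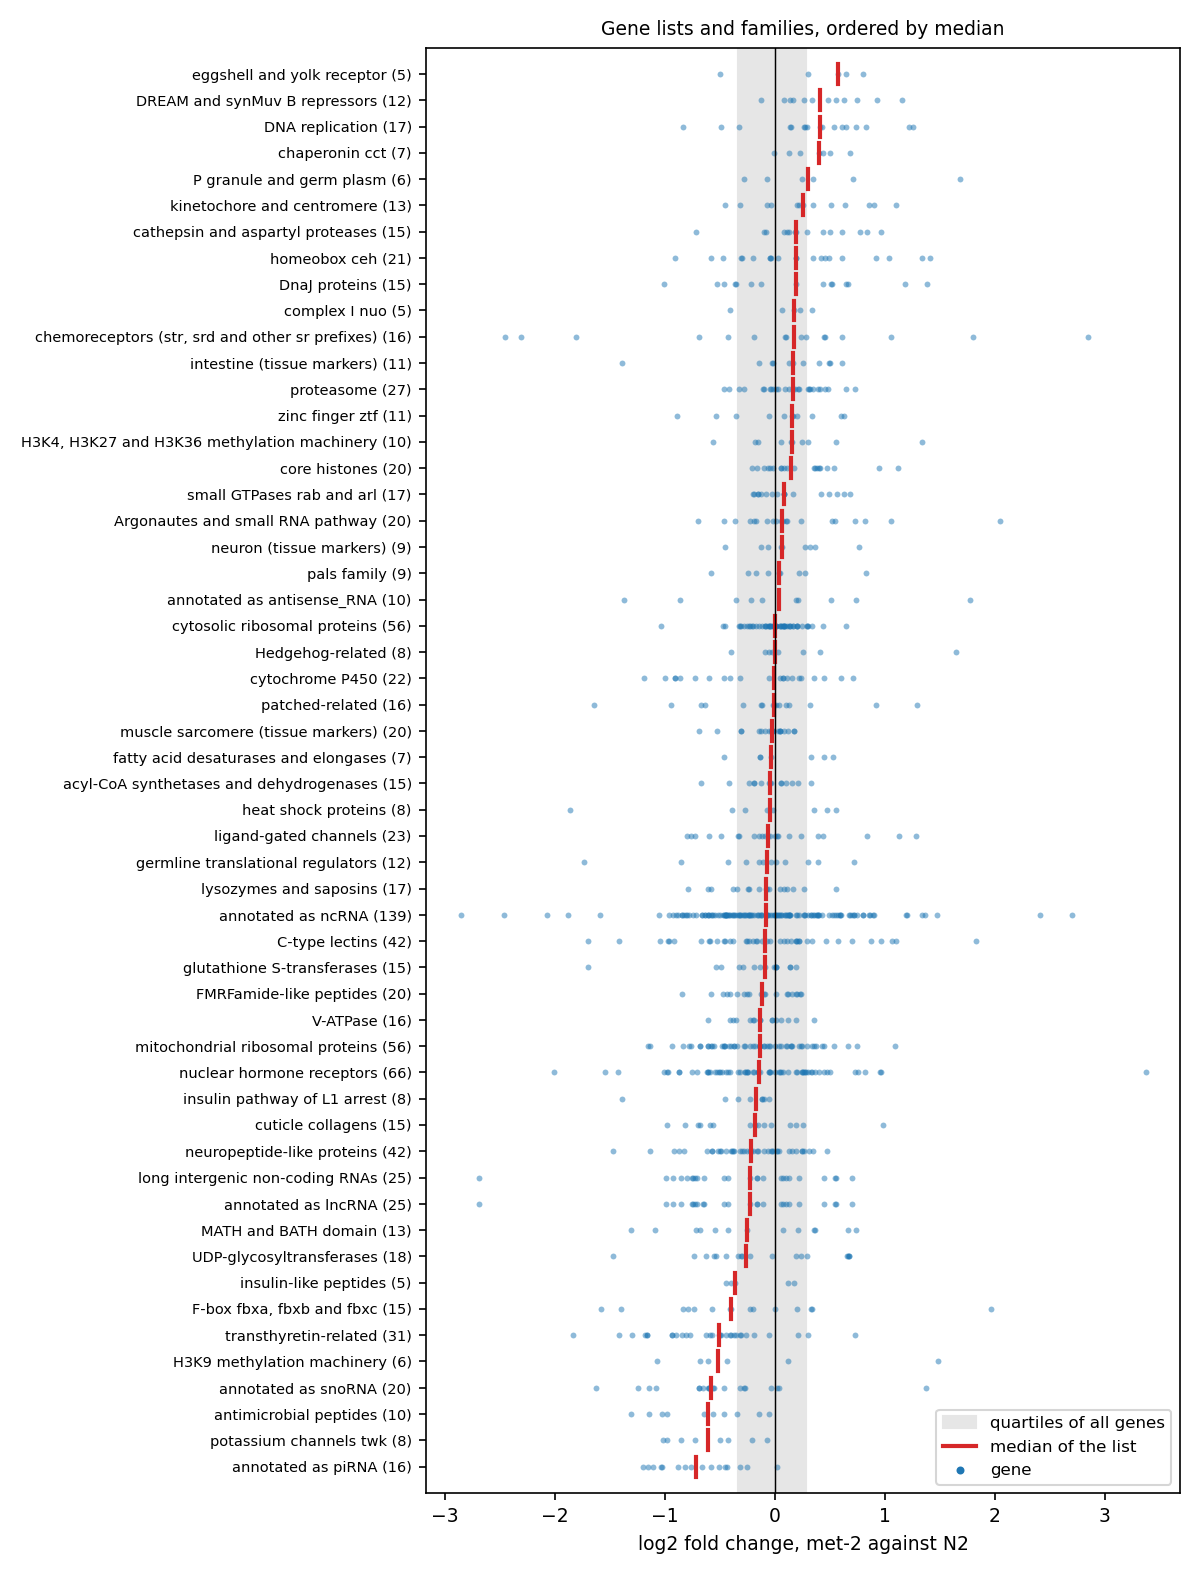
Each row is a gene list, a family or an annotated class of RNA, with the number of genes at a base mean of at least 50 in brackets, and each point is the log2 fold change of 1 gene on the x axis. Red bars mark the medians, which run from -0.61 to 0.58 for the lists and families, and the grey band spans the quartiles of all genes, -0.33 to 0.29.

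Genes next to the called ones were examined, since repressive chromatin can span neighbours. Of the 9 called transcripts 7 had a place in the gene order of the reference, and 22 genes within 4 places of them had a base mean of at least 10. The median log2 fold change of these 22 was 0.07, and the unadjusted p was under 0.05 for 3 higher and 0 lower ones, where 2.1% of all 12077 genes at that base mean were higher and 1.21% lower. F15D4.6, 3 places from F15D4.5, had 3.003 (SE 0.90 and unadjusted p of 0.000839) at a base mean of 26.4 in the authors' deposited table. set-24, 4 places from Y57A10A.2, had 2.39 (SE 0.86 and unadjusted p of 0.00522), and Y38H6C.25, 2 places from Y38H6C.8, had 2.21 (SE 0.90 and unadjusted p of 0.0146) in the authors' deposited table. On either side of trf-2, unc-63 had -0.67 (SE 0.71) and ppw-2 had 0.05 (SE 0.71) there. The neighbour F15D4.4, next to F15D4.5, had 0.08 (SE 0.79) in the authors' deposited table. Over all genes at the minimum, 2 of the 99 genes that were higher at an unadjusted p under 0.05 and could be placed (2.02%) had a higher gene next in order. Among the other 5932 genes the share was 3.29%. The 2 genes are a single pair, T28A8.6 with 2.84 (SE 0.84) and T28A8.4 with 2.05 (SE 0.88) in the authors' deposited table.

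Base means differed between genes with 1 listed transcript and genes with several. Protein-coding genes with 1 listed transcript had a median base mean of 17.3, and 36.03% reached the minimum of 50. Genes with 2 or more listed transcripts had a median largest base mean of 2.67, and 16.2% reached it. A sum under 1 was found for 14.8% of the former and 38.3% of the latter. The genes arle-14 and jmjd-1.2, listed at 0, have 2 and 3 listed transcripts. Of the germ cell markers below the minimum, pgl-3, deps-1 and him-3 have 2 and rec-8 has 3, while pgl-1 has 1. The hypodermal markers elt-1, elt-3 and mlt-11, at a base mean of 0, have 4, 2 and 8. The hypodermal markers dpy-7 and dpy-13, also below the minimum, have 1 each. The counting settings are not given in the sources used here, and the part of counting in these differences was not tested.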

How the data were processed

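RNA of starved L1 larvae was sequenced, with 2 libraries in each of 4 groups. Per the submitters' processing notes, the tools were FastQC, Trimmomatic, featureCounts and DESeq2 2.11.40.2, with the genome build ce10. The aligner, the annotation, the use of strand and the settings are not given in the sources used here. The authors deposited 3 tables of 50832 RefSeq transcripts, 1 for each mutant against N2, without headers, so columns were identified from their values. The deposited base mean is a signal, namely scaled counts that the authors averaged over the 4 libraries of each table. The authors gave fold changes and their SE as log2 values, and deposited the quotient of both as a Wald score. The deposited p-value and adjusted p-value are the authors' own. Depth per library is unknown, and the number of unused columns of single samples was 0.

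Gene symbols and gene order were taken from RefSeq (assembly WBcel235), which differs from the authors' build, so no coordinates are given, and 46074 transcripts (90.6%) matched. Each gene was represented by its transcript of largest base mean in met-2. Exonic lengths came from an Ensembl annotation by symbol. Sequences are not printed, since no sequence table was used here.

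A call is an adjusted p under 0.05 at a base mean of at least 50. All of the genes at that minimum had an adjusted p. Lists and families were described by counts and medians, without a test, where at least 5 members reached the minimum. Named genes are all calls, the 12 largest log2 fold changes in each direction at an unadjusted p under 0.05, and every gene of the H3K9 list and spr-5. In each list, up to 3 members with the smallest p and the one with the largest base mean could also be named. The lists and genes were chosen with earlier results of these data known. Alternatives were an adjusted p under 0.01, recomputed Benjamini-Hochberg adjustment, base mean minimums of 10 and 100, all transcripts, centring, and an unadjusted p under 0.01. The adjustment and the counting were tested on simulated data. Python 3.11.15, numpy 2.4.6, pandas 2.3.3 and matplotlib 3.10.9 were used.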

Additional observations from a re-analysis of the deposited data

How the results depend on the processing

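No paired analysis was possible because values of the single libraries are needed for it, and the tables give comparisons alone. No library could thus be left out, and no edgeR or other count model was run. The 9 calls, all higher, became 5 at a base mean of at least 100, since 4 called transcripts lie below it. The other alternatives gave 7 to 12 calls, and 0 lower in each. Of the genes at an unadjusted p under 0.05, the 111 higher became 254 at a base mean of at least 10, 66 at 100 and 55 at an unadjusted p under 0.01. The 54 lower ones became 146, 24 and 13 in the same order. The shares of the genes tested moved as well as the counts. For the higher genes they were 1.61% at a base mean of at least 50, 2.1% at 10 and 1.35% at 100. For the lower genes they were 0.785%, 1.21% and 0.493% in that order. Of 216 alternatives for the medians of lists, families and annotated classes of RNA, 18 changed sign. In 3 of them, of the F-box and the MATH and BATH families, the median was at least 0.25 from 0. Centring moved every median by only 0.02, and use of all transcripts left nearly all unchanged, so these could hardly change a sign. The largest move was 0.53, for the eggshell genes. The smallest log2 fold change called was 3.22, with a median SE of 0.74 over all genes, and with Benjamini-Hochberg adjustment recomputed over transcripts at the minimum of 50, sri-31 at 2.85 was among the 12 that passed.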

Other observations

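Some genes outside the rule for named genes had an unadjusted p under 0.05 without passing the adjusted p. They were picked after their values were seen, and the values are given as a description. The gene lotr-1, whose LOTUS and Tudor domain protein sits in germ granules, stood at 2.71 on the log2 scale (SE 0.77) in the authors' deposited table. The RNA export factor gene nxf-2 had 2.74 (SE 0.86) there, at a base mean of 50.3, close to the minimum. Of the listed germline translational regulators 5 were above 0 and 7 below, with a median of -0.07. Single genes of the cuticle, the apical matrix and hatching were also on the higher side, while of the col family of cuticle collagens 11 of 15 were below 0, with a median of -0.19. The zona pellucida domain gene noah-2 had 2.12 (SE 0.82), the hatching protease gene hch-1 had 1.91 (SE 0.84) and the cuticlin-like gene cutl-16 had 1.63 (SE 0.77) in the authors' deposited table. The dual oxidase gene duox-2, from a family with a member that crosslinks cuticle, had 2.66 (SE 0.82), and sym-1 had 2.06 (SE 0.72) there. On the lower side, the acetylcholine receptor gene lev-8 had -2.05 (SE 0.81), the methionine sulfoxide reductase gene msra-1 had -1.80 (SE 0.77) and the pharyngeal gland gene hlh-6 had -1.60 (SE 0.81) in the authors' deposited table.

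Further families by gene name prefix, 12 with at least 15 genes at or above the minimum, were added after the values were seen. The neuropeptide receptor genes of the npr class had 14 of 19 below 0 and a median log2 fold change of -0.37. The nssp genes had 23 of 36 below 0 and a median of -0.25. In the other direction, nucleoporin genes of the npp class had 10 of 15 above 0 and a median of 0.29, and translation initiation factor genes of the eif class 14 of 20 and 0.18. The unc genes, named for movement defects, had a median of -0.01 over 40 genes.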
